A study of Rattus norvegicus with 13 samples.

Results

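The nuclear genes for the subunits of respiratory complex I were followed in rat cortical cultures through 38 probe sets of a GeneChip array. They are the probe sets with a single gene symbol that begins with Ndufa, Ndufb, Ndufc, Ndufs or Ndufv and a digit, out of 20826 probe sets with a single symbol. They stand for 35 of 14217 genes, and the assembly factors, whose symbols begin with Ndufaf, are not among them. A further 2 probe sets match a subunit gene and a second symbol and were left out.

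Complex I, the NADH:ubiquinone oxidoreductase, is the entry point of electrons from NADH into the mitochondrial respiratory chain. Its matrix arm holds the N module, which oxidises NADH, and the Q module, which reduces ubiquinone. Its membrane arm pumps protons and is built from modules named after the mitochondrially encoded proteins at their centre (ND1, ND2, ND4 and ND5). Core subunits carry out the chemistry, and accessory subunits surround them. Messenger RNAs for nuclear-encoded mitochondrial proteins are among those known to be carried into axons and translated there.

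Neurons were grown in a compartmentalised microfluidic platform, which guides axons through narrow channels into a compartment of their own, and polyadenylated RNA was collected on day 13 of culture. The groups are regenerating axons (3 arrays; cut on day 11 and left to regrow for 2 days), neurons from the compartment that holds the cell bodies (3 arrays; not injured) and uninjured axons (7 arrays, from 3 culture batches; which array came from which batch is not given). For each array the material of 3 platforms was pooled and its RNA amplified in 2 rounds, all groups were grown in the same supplemented Neurobasal medium, and no strain, genotype or age is given. The deposited value is a ratio without units, 1 being the level in the axons it was divided by, and uninjured array 7 is exactly 1 throughout and carries no measurement. The labels do not state the divisor of the regenerating and neuron arrays. It was read here as uninjured axons, and the signs of both comparisons with them depend on it. Precision is limited by the number of arrays, and since separate cultures are not stated for the arrays of one group, p-values may measure technical spread only. A ratio does not show how abundant a transcript is.

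Subunit genes mostly read below 1 in regenerating axons and above 1 in neurons. The median subunit gene read 0.397, 0.197 and 0.180 in the 3 regenerating arrays, 2.47, 1.32 and 3.29 in the 3 neuron arrays, and between 0.825 and 1.15 in the 6 measured uninjured arrays. The median was thus below 1 on every regenerating array and above 1 on every neuron array. Over all genes the array medians lay between 1.005 and 1.013 in regenerating axons, between 1.08 and 1.25 in neurons and at 1 in uninjured axons. In regenerating axons array 1 was the highest of the 3 for 27 of 35 subunit genes, against 34% of all genes. In neurons array 2 was the lowest for 34 of 35, against 50.4% of all genes. Among the uninjured axons array 1 was the lowest for 21 of 35, against 18.6% of all genes, and 13 of the 35 read below 0.7 there, against 4.41% of all genes.

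**Figure D1:**
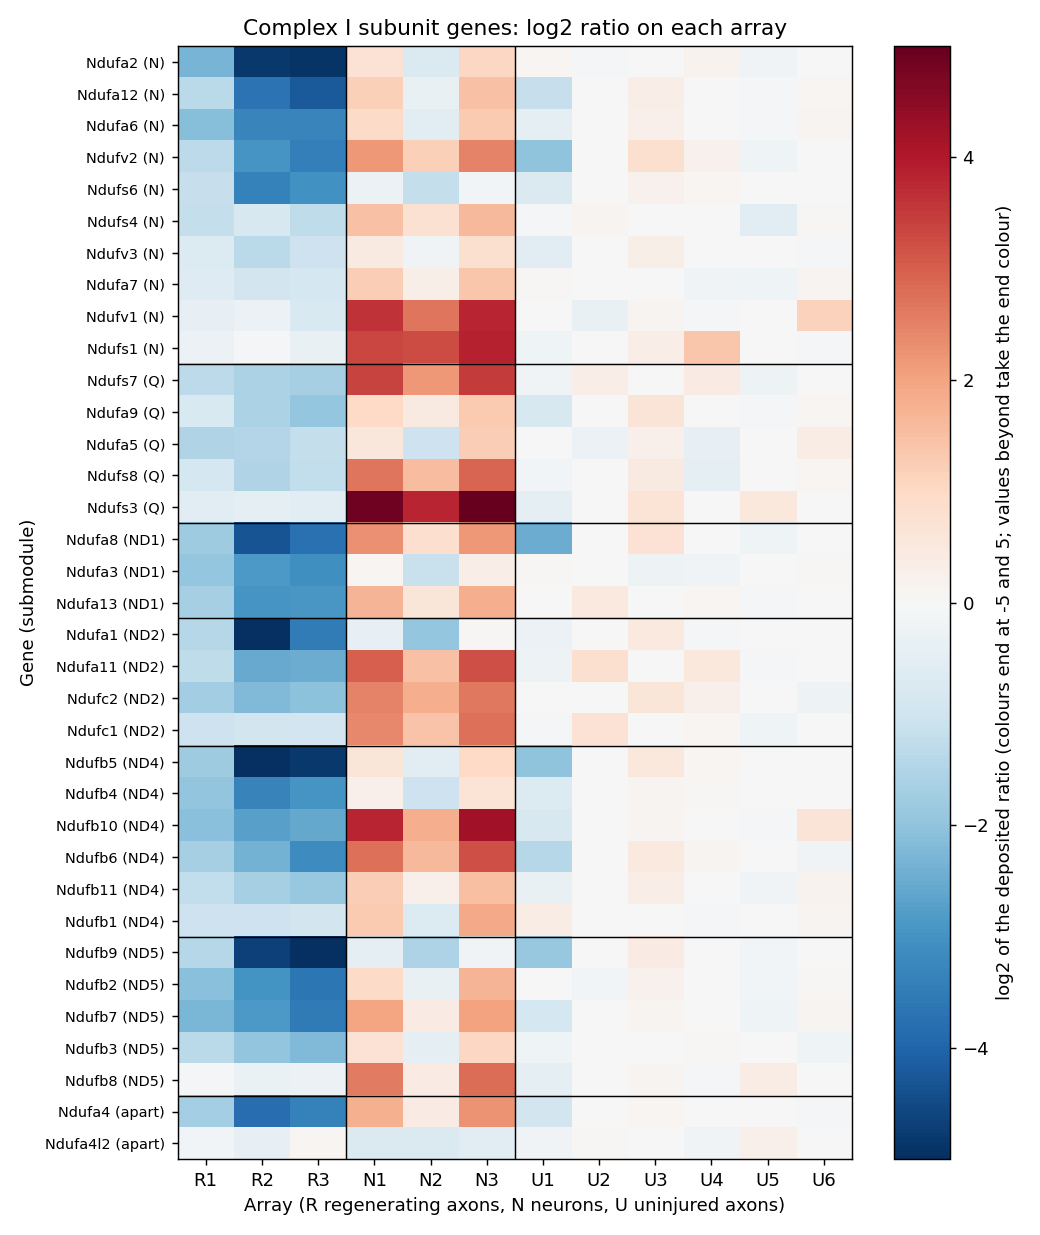
Log2 of the deposited ratio of the 35 complex I subunit genes (rows, by submodule, with *Ndufa4* and *Ndufa4l2* apart) on 12 arrays (columns: regenerating axons R1 to R3, neurons N1 to N3, uninjured axons U1 to U6). Blue is below and red above a ratio of 1. The regenerating columns are mostly blue, with medians of 0.397, 0.197 and 0.180, and U1 holds the darkest blue cells of the uninjured axons.

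Regenerating axons were compared with uninjured axons to ask how the axonal messenger RNAs for complex I stand 2 days after the cut. All 35 genes had a fitted value below 0 on the log2 scale, with a median of -2.09 against 0.02 over all 14217 genes. In limma with Benjamini-Hochberg adjustment over all genes, 10 of the 35 were lower in regenerating axons, where 0.689% of all genes were, and none was higher, where 0.0352% of all genes were. No subunit gene was higher at an unadjusted p under 0.05 either, and 30 were lower at that level. At least 2-fold lower values at any p were found for 28 of the 35, against 5.27% of all genes. The 3 regenerating arrays lay below all 6 uninjured arrays for 26 of the 35, against 12.5% of all genes. In pooled material, fewer axons that carry a transcript and less of it in each axon cannot be told apart.

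The 10 genes that passed encode 1 core and 9 accessory subunits. *Ndufa6*, an accessory subunit of the matrix arm with a LYR motif that binds acyl carrier protein, read 0.226, 0.102 and 0.103 in regenerating axons, against 0.731 to 1.19 (median 1) in uninjured axons. It was 7.50-fold lower (log2 -2.91 ± 0.42, SE, n = 3 arrays, adjusted p = 0.0306), and the groups did not overlap. The small membrane subunit gene *Ndufa3* read 0.262, 0.137 and 0.120 in regenerating axons, against 0.841 to 1.04 (median 1) in uninjured axons. Its difference was log2 -2.62 ± 0.36 (adjusted p = 0.0306). *Ndufb2*, of the ND5 module at the far end of the membrane arm, read 0.237, 0.127 and 0.0818 in regenerating axons, against 0.902 to 1.14 (median 1) in uninjured axons, which is 7.41-fold lower (log2 -2.89 ± 0.44, adjusted p = 0.0329). Each of these genes had its highest regenerating value on array 1 and stayed far below the lowest uninjured array.

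*Ndufb7*, a membrane-arm subunit held together by disulphide bonds, read 0.207, 0.138 and 0.0864 in regenerating axons, against 0.548 to 1.10 (median 1) in uninjured axons (log2 -2.89 ± 0.47, adjusted p = 0.0359). *Ndufb4*, of the ND4 module, read 0.256, 0.0979 and 0.130 in regenerating axons, against 0.629 to 1.10 (median 1) in uninjured axons (log2 -2.76 ± 0.46, adjusted p = 0.0359). In both genes the lowest uninjured value is that of array 1, and it is still more than any regenerating value. The others that passed were *Ndufa13*, also known as the cell death regulator GRIM-19 (-2.50 ± 0.43), *Ndufb10* (-2.44 ± 0.40), *Ndufc2* (-1.99 ± 0.30), *Ndufb3* (-1.84 ± 0.29) and the core gene *Ndufs7* (-1.51 ± 0.28). Their adjusted p-values lay between 0.0329 and 0.0475, and the 10 genes together ran from 0.0306 to 0.0475.

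**Figure D2:**
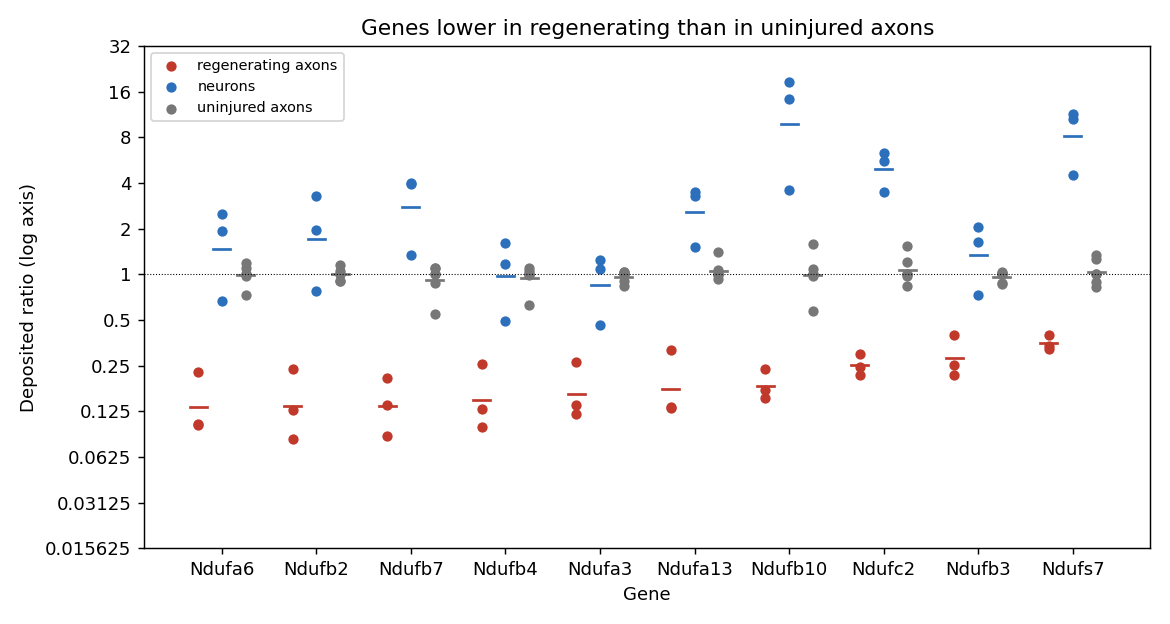
Deposited ratio (log axis) on every array for the 10 subunit genes that were lower in regenerating than in uninjured axons, with bars at the mean log2 value of each group. The 3 regenerating arrays lie below the 6 uninjured arrays for each gene, while neurons range from 0.462 for *Ndufa3* to 18.6 for *Ndufb10*.

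The largest fitted differences did not pass and had the larger standard errors. *Ndufb5* stood at log2 -4.19 ± 1.35 (adjusted p = 0.198), *Ndufa2* at -4.02 ± 0.80 (adjusted p = 0.0573) and *Ndufb9* at -3.69 ± 1.23 (adjusted p = 0.218). *Ndufb5* read 0.292, 0.0159 and 0.0356 in regenerating axons and 0.246 on uninjured array 1, so that its groups overlap. *Ndufb9* overlaps in the same way, at 0.373, 0.0393 and 0.0318 in regenerating axons and 0.269 on uninjured array 1. *Ndufa2* read 0.201, 0.0353 and 0.0330 in regenerating axons, against at least 0.881 in uninjured axons. Between adjusted p = 0.05 and 0.1 lay 6 genes, *Ndufa2* among them, with *Ndufb11* (adjusted p = 0.0507) and *Ndufb1* (adjusted p = 0.0521) nearest to the threshold, beside *Ndufs7* (adjusted p = 0.0475) just within it.

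The count of 10 depends on the arrays and on how the reference is treated. Without regenerating array 2 or array 3, or without uninjured array 2 or array 6, limma called 0 of the 35 genes, while 29, 29, 30 and 30 of them were lower at an unadjusted p under 0.05; 0.0211%, 0%, 0.0281% and 0.0563% of all genes were then called lower. Without regenerating array 1 it called 20, where 2.54% of all genes were lower. Pooling the spread with the neuron arrays left 1, *Ndufc2*, where 0.338% of all genes were lower. Leaving out the error of the reference gave 30, where 14% of all genes were lower, and a plain fit against the 6 uninjured arrays also gave 30, where 11.4% were.

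Some subunit genes had fitted values near 0 in regenerating axons. The core genes *Ndufs1* (log2 -0.25 ± 0.49), *Ndufv1* (-0.50 ± 0.43) and *Ndufs3* (-0.53 ± 0.37) had adjusted p-values of 0.913, 0.760 and 0.653. *Ndufs3* is nevertheless among the genes whose groups do not overlap, with regenerating values of at most 0.726 and uninjured values of at least 0.740. *Ndufb8*, an accessory membrane subunit often used to detect the complex on blots, stood at -0.24 ± 0.26 (adjusted p = 0.819). *Ndufa4l2*, a paralogue of *Ndufa4* known to be induced by hypoxia, stood at -0.15 ± 0.23 (adjusted p = 0.884).

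The neuronal compartment was compared with uninjured axons to ask where these messenger RNAs are relatively higher, and it shares the uninjured arrays with the comparison above. Core subunit genes gave the 3 largest values. Many accessory genes did not pass, which does not show that they stood at the axonal level. In limma 14 of the 35 genes were higher in neurons, where 36.9% of all genes were, and 1 was lower, where 23% of all genes were. The share that was higher, 14 of 35, is therefore near that of all genes. The median subunit gene stood at log2 1 and the median of all genes at 0.22, and 29 of 35 values were positive. Neuron arrays lay above all uninjured arrays for 18 of the 35, against 41.8% of all genes. Without neuron array 2, 25 genes were called higher, where 41% of all genes were, and 31 did not overlap, against 48% of all genes.

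*Ndufs3*, a core subunit that carries no cofactor and helps to hold the Q module together, read 29.5, 13.9 and 31.9 in neurons, against 0.740 to 1.59 (median 1) in uninjured axons. It was 23.6-fold higher (log2 4.56 ± 0.51, SE, n = 3 arrays, adjusted p = 9.07e-05). *Ndufs1*, the largest core subunit, which holds iron-sulphur clusters, read 10.2, 9.51 and 14.2 in neurons, against 0.870 to 2.62 (median 1) in uninjured axons (log2 3.48 ± 0.51, adjusted p = 0.000450). *Ndufv1*, which binds NADH and the flavin, read 12.1, 6.47 and 14.1 in neurons, against 0.766 to 2.25 (median 1) in uninjured axons (log2 3.37 ± 0.52, adjusted p = 0.000612). In none of these genes did the groups overlap, and in each of them neuron array 2 was the lowest of the 3.

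*Ndufs7*, which carries the iron-sulphur cluster next to the quinone site, read 10.5, 4.48 and 11.4 in neurons, against 0.828 to 1.33 (median 1) in uninjured axons (log2 3.02 ± 0.48, adjusted p = 0.000681). *Ndufs8*, another iron-sulphur subunit, read 6.41, 2.89 and 7.60 in neurons, against 0.710 to 1.35 (median 1) in uninjured axons (log2 2.38 ± 0.48, adjusted p = 0.00249). *Ndufv2*, the iron-sulphur partner of *Ndufv1*, read 4.48, 2.25 and 5.62 in neurons, against 0.250 to 1.72 (median 1) in uninjured axons. Its difference of log2 1.94 ± 0.86 did not pass (adjusted p = 0.0749), and its lowest uninjured value was that of array 1. In regenerating axons *Ndufv2* read 0.399, 0.128 and 0.0934 (log2 -2.57 ± 0.97, adjusted p = 0.284), *Ndufs8* 0.544, 0.352 and 0.424 (log2 -1.21 ± 0.31, adjusted p = 0.116) and *Ndufs7* 0.399, 0.338 and 0.320. The regenerating values of *Ndufs1* were 0.809, 0.952 and 0.779, those of *Ndufv1* 0.752, 0.808 and 0.584, and those of *Ndufs3* 0.679, 0.726 and 0.670.

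**Figure D3:**
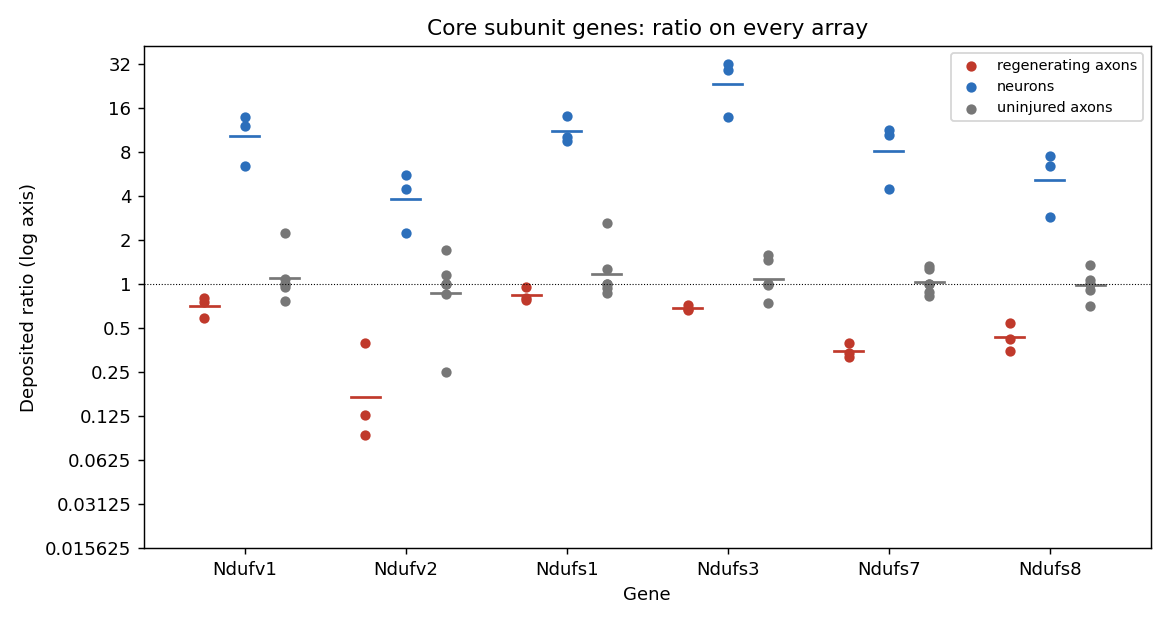
Deposited ratio (log axis) on every array for the 6 measured core subunit genes, with bars at the mean log2 value of each group (3 regenerating, 3 neuron and 6 uninjured arrays). Neurons lie above all uninjured arrays for each gene, up to 31.9 for *Ndufs3*. In regenerating axons *Ndufv2* reached 0.0934, while *Ndufs1* stayed at 0.779 or more.

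Of the accessory genes, *Ndufb10* of the ND4 module had the largest excess in neurons. It read 14.2, 3.57 and 18.6 in neurons, against 0.573 to 1.58 (median 1) in uninjured axons (log2 3.29 ± 0.77, adjusted p = 0.00514). *Ndufa11*, an accessory membrane subunit, read 7.99, 2.79 and 9.32 in neurons, against 0.843 to 1.76 (median 1) in uninjured axons (log2 2.56 ± 0.62, adjusted p = 0.00631). *Ndufb6* read 6.82, 3.07 and 9.29 in neurons, against 0.371 to 1.39 (median 1) in uninjured axons (log2 2.53 ± 0.70, adjusted p = 0.0119). The groups did not overlap in any of the 3 genes. The other accessory genes that were higher in neurons were *Ndufc2* (2.31 ± 0.36), *Ndufc1* (2.20 ± 0.46), *Ndufb8* (1.93 ± 0.75), *Ndufa13* (1.37 ± 0.42), *Ndufs4*, whose loss causes Leigh-like disease in mice (1.28 ± 0.34), and *Ndufa7* (0.96 ± 0.36). *Ndufb8* (adjusted p = 0.0479) and *Ndufa7* (adjusted p = 0.0404) passed closely, and with each array shifted to the same median 12 in place of 14 genes were higher.

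*Ndufa4l2* was lower in neurons. It read 0.602, 0.613 and 0.682 in neurons, against 0.879 to 1.18 (median 1) in uninjured axons (log2 -0.66 ± 0.20, adjusted p = 0.0191). In regenerating axons it read 0.919, 0.750 and 1.07. Its neuron value lies within the range of 29 genes for smell, taste and pheromone receptors, a class taken to be largely silent in cortex, which ran from -1.61 to 0.20 (median -0.98) in neurons and from -0.16 to 0.82 (median 0.20) in regenerating axons. *Ndufa1* (-0.76 ± 0.60), *Ndufb9* (-0.74 ± 0.77), *Ndufs6* (-0.55 ± 0.43), *Ndufa3* (-0.23 ± 0.45) and *Ndufb4* (-0.04 ± 0.54) also had negative neuron values and did not pass. *Ndufa4*, long counted with complex I and now placed with complex IV, read 3.46, 1.33 and 4.74 in neurons and 0.308, 0.0714 and 0.0966 in regenerating axons, against 0.529 to 1.08 (median 1) in uninjured axons. Neither difference passed (neurons log2 1.48 ± 0.61, adjusted p = 0.0575; regenerating axons -2.96 ± 0.67, adjusted p = 0.0833).

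By role in the enzyme, core genes had a higher median than accessory genes on every regenerating and neuron array. The 6 core genes had medians of 0.608, 0.505 and 0.497 in regenerating axons and of 10.4, 5.39 and 12.7 in neurons. The 27 accessory genes had medians of 0.373, 0.153 and 0.133 in regenerating axons and of 2.28, 0.895 and 2.78 in neurons. Against uninjured axons the median log2 value in regenerating axons was -0.87 for core and -2.44 for accessory genes, with 1 of 6 and 9 of 27 lower, where 0.689% of all genes were. In neurons it was 3.20 for core and 0.85 for accessory genes, with 5 of 6 and 9 of 27 higher, where 36.9% of all genes were, so the accessory count is near the share of all genes. The difference between the 2 classes was not tested.

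By submodule, the 2 modules of the matrix arm had medians nearer 0 in regenerating axons than the 4 of the membrane arm, a difference that was not tested. All measured core genes lie in the N and Q modules, so this contrast overlaps that between core and accessory genes. *Ndufa7*, *Ndufv3* and *Ndufa9*, each with a probe set nearer 0, lie in these modules too. Median log2 values in regenerating axons were -1.39 for the 5 genes of the Q module, -1.81 for the 10 of the N module, -2.04 for the 4 of ND2, -2.41 for the 6 of ND4, -2.62 for the 3 of ND1 and -2.89 for the 5 of ND5. The numbers lower were 1, 1, 1, 2, 2 and 3 in that order, where 0.689% of all genes were. In neurons the medians were 2.38, 0.86, 2.25, 0.92, 1.37 and 0.77 in the same order, with 3, 4, 3, 2, 1 and 1 genes higher, where 36.9% of all genes were. The N, ND1, ND4 and ND5 counts are near or below that share. Within the N module the range was wide, from -4.02 for *Ndufa2* to -0.25 for *Ndufs1* in regenerating axons. The assignment of a few accessory subunits to a module differs between descriptions of the enzyme.

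**Figure D4:**
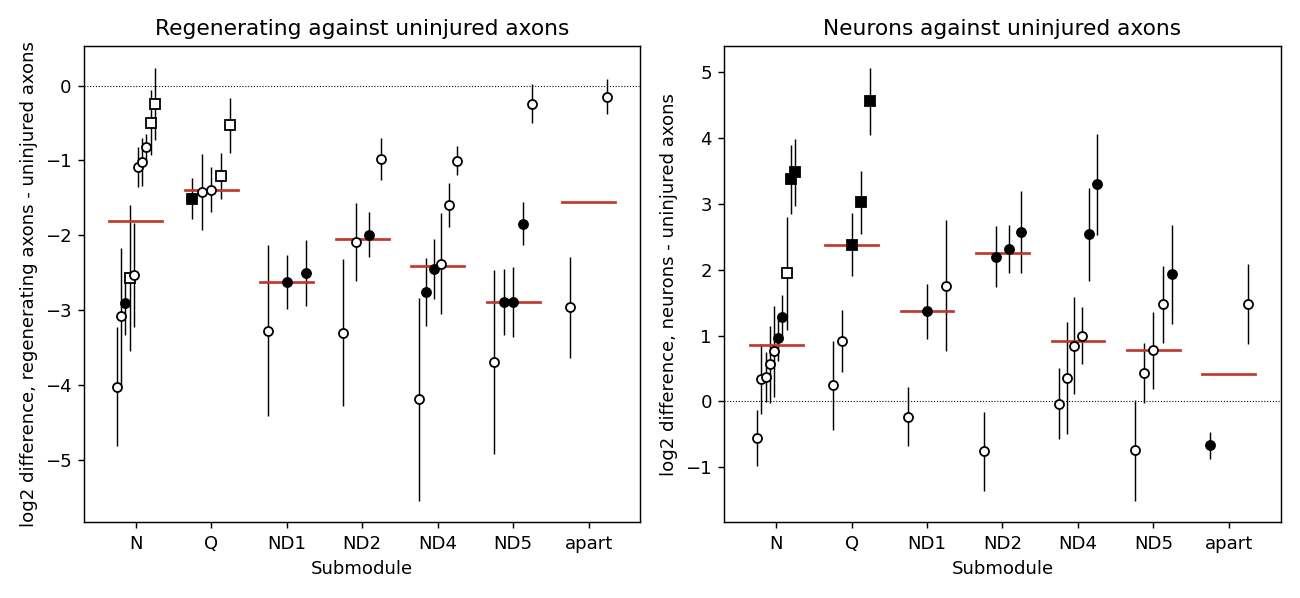
Log2 difference of each subunit gene in regenerating axons (left) and neurons (right) against uninjured axons, by submodule. Squares are core and circles accessory or apart, filled symbols passed the test, vertical lines are standard errors of the fit and red bars are medians. All 35 values at left are below 0, and the core squares lie between 1.94 and 4.56 at right.

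Of the 3 genes with a pair of probe sets, all had probe sets that differed by over 1 on the log2 scale. *Ndufa7* read 0.466, 0.257 and 0.276 in regenerating axons with one probe set and 0.858, 1.08 and 1.06 with the other, which is log2 -1.64 ± 0.34 and -0.01 ± 0.25. *Ndufv3*, an accessory gene of the N module that is spliced into a short and a long form, read 0.389, 0.183 and 0.211 with one and 1.01, 0.829 and 1.15 with the other (log2 -2.02 ± 0.41 and -0.02 ± 0.29). *Ndufa9*, which sits where the matrix arm joins the membrane arm, read 0.620, 0.222 and 0.128 with one and 0.551, 0.515 and 0.547 with the other (log2 -1.94 ± 0.94 and -0.90 ± 0.17). Their mean, which stands for the gene, therefore joins unlike readings, and none of the 6 probe sets passed in regenerating axons (adjusted p between 0.0539 and 0.997 over all probe sets). In neurons those of *Ndufa9* read log2 1.70 ± 0.77 and 0.14 ± 0.30. Fitted one by one, 9 of the 38 probe sets were lower in regenerating axons, where 0.552% of all probe sets were.

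Regenerating axons and neurons were also compared with each other, by a 2-group fit that does not involve the uninjured arrays but assumes a shared divisor. Here 34 of the 35 genes were lower in regenerating axons, where 44.2% of all genes were, and 1, *Ndufa4l2*, was higher, where 31.3% of all genes were. The groups did not overlap for 31 of these 34, against 45.8% of all genes. The median was log2 -3.59, against -0.23 for all genes. *Ndufb10*, at 0.237, 0.153 and 0.172 in regenerating axons and 14.2, 3.57 and 18.6 in neurons, had the largest difference, at 53.4-fold (log2 -5.74 ± 0.56, adjusted p = 6.46e-05). *Ndufs3* differed by log2 -5.09 ± 0.30, *Ndufa11* by -4.66 ± 0.51 and *Ndufb6* by -4.91 ± 0.48. *Ndufa8*, a membrane-arm accessory gene, read 0.296, 0.0501 and 0.0750 in regenerating axons and 4.86, 1.77 and 4.48 in neurons (log2 -5.03 ± 0.67, adjusted p = 0.000295), while on uninjured array 1 it read 0.178. *Ndufa4l2* stood at 0.52 ± 0.17 (adjusted p = 0.0223), and it no longer passed without regenerating array 1 or 3 or without neuron array 1. Between 29 and 34 genes were lower when 1 array was left out.

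Controls and cell type markers were read on the same arrays. The 9 hybridisation controls, which are bacterial and phage transcripts added for the hybridisation, had a median ratio of 1.11, 1.45 and 1.61 in regenerating axons and 0.254, 0.855 and 0.158 in neurons, against 0.901 to 1.05 in uninjured axons. Within both groups the arrays with higher controls had lower subunit medians. The 3′ control probe set of GAPDH read 0.355, 0.159 and 0.142 in regenerating axons and 13.7, 7.19 and 16.6 in neurons, and was 0.620 on uninjured array 1. The log2 difference between the 3′ and 5′ probe sets was -0.48, -1.14 and -0.82 in regenerating axons and -2.22, -1.74 and -2.09 in neurons for GAPDH, and 0.02, -0.63 and -0.40 in regenerating axons and 0.78, 0.42 and 0.60 in neurons for beta-actin. Of 8 neuronal markers 4 lay below all uninjured arrays in regenerating axons (array medians 0.579, 0.534 and 0.410), and 7 were higher in neurons (10.5, 7.14 and 12.4). Of 8 astrocyte markers 1 lay below all uninjured arrays in regenerating axons (array medians 1.01, 1.01 and 0.959), and 7 were higher in neurons (6.67, 7.64 and 7.19), so the neuron samples hold glial transcripts too. Of 7 microglial markers 4 lay above all uninjured arrays in regenerating axons (array medians 1.30, 1.26 and 1.24), and 6 were lower in neurons (0.470, 0.628 and 0.443), the opposite direction to the subunit medians in both groups. Their median log2 values, 0.35 in regenerating axons and -0.85 in neurons, are near those of the 29 receptor genes taken to be largely silent. These stood at 0.20 and -0.98, with 22 of the 29 lower in neurons. Of 5 oligodendrocyte markers 3 lay below and 1 above all uninjured arrays in regenerating axons (array medians 0.848, 0.854 and 0.864), and 2 were higher and 2 lower in neurons (1.24, 0.951 and 1.15). Of all 14217 genes 12.5% lay below and 1458 genes lay above all uninjured arrays in regenerating axons. In neurons 36.9% of all genes were higher and 23% lower. Unlike the subunit medians, the astrocyte median was highest on neuron array 2. The part of these in the subunit values was not tested.

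The rest of the respiratory chain gave the frame for complex I. In regenerating axons the median log2 was -2.45 for 8 genes of complex III, -2.68 for 17 of IV and -2.08 for 16 of V. It was -2.09 for complex I. Of the genes of III, IV and V, 0, 1 and 0 were lower, where 0.689% of all genes were. The gene that passed was *Cox7b* (-3.33 ± 0.56, adjusted p = 0.0359). Regenerating arrays lay below all uninjured arrays for 6 of 8 genes of III, 11 of 17 of IV and 13 of 16 of V. The same held for 26 of 35 genes of complex I, 1 of 4 of II and 12.5% of all genes. By this measure complex I did not stand apart from III, IV and V. Genes of IV and V were listed by how their symbols begin. *Atp5if1*, *Cox7a2l* and *Cox6c-ps1*, which need not encode subunits, are therefore among them. The 4 genes of complex II, succinate dehydrogenase, had a median of -0.13. In neurons the medians were 2.96 for complex II, 1.27 for III, -0.15 for IV and 1.58 for V, beside 1 for complex I. The numbers higher were 4, 4, 1 and 7 for II, III, IV and V, where 36.9% of all genes were. The complex V count, 7 of 16, is near that share. In neurons 3 of the 17 genes of complex IV and 2 of the 16 of V were lower, and none of II and III. Both counts are below the 23% of all genes that were lower. The 3 of complex IV were *Cox6a2* (-0.76 ± 0.19), *Cox7b2* (-0.76 ± 0.24) and *Cox6c-ps1* (-0.99 ± 0.34). The 2 of complex V were *Atp5f1e* (-1.17 ± 0.43) and *Atp5if1* (-0.96 ± 0.31). Each of these values lies within the range of the 29 receptor genes in neurons (-1.61 to 0.20). *Ndufab1*, the acyl carrier protein that is also a complex I subunit, stood at -1.72 ± 0.45 in regenerating axons (adjusted p = 0.119) and 1.16 ± 0.48 in neurons (adjusted p = 0.0604). On uninjured array 1 the median ratio was 0.814 for complex III, 0.785 for IV and 0.734 for V, beside 0.825 for complex I and 0.988 for II. The low values on that array are thus not particular to complex I.

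Genes that build or control the complex had medians nearer 0 in regenerating axons than its subunits. Without a signal level per gene, values near background cannot be told from unchanged transcripts there. Of 17 measured assembly factors the median was log2 0.05 in regenerating axons and 0.52 in neurons. One, *Lyrm2*, was lower in regenerating axons (-2.21 ± 0.32, adjusted p = 0.0306), where 0.689% of all genes were. *Ndufaf8* (-2.01 ± 0.39, adjusted p = 0.0551) and *Ndufaf5* (-1.07 ± 0.47, adjusted p = 0.385) did not pass. Of these factors 6 were higher in neurons, among them *Ndufaf3* (2.26 ± 0.71), *Timmdc1* (2.10 ± 0.47) and *Ndufaf4* (1.43 ± 0.47), and *Tmem70* was lower (-1.31 ± 0.20). The *Tmem70* value lies within the range of the 29 receptor genes in neurons (-1.61 to 0.20). Over all genes 36.9% were higher and 23% lower in neurons, so the count of 6 of 17 is near the share of all genes. The 11 transcriptional regulators of respiratory genes had a median of 0.23 in regenerating axons, with a range of -0.23 to 0.65 and adjusted p-values of 0.311 or more. In neurons 5 of the 11 were higher, where 36.9% of all genes were. Among them were the mitochondrial transcription factor gene *Tfam* (3.07 ± 0.40) and *Gabpa* (2.23 ± 0.17), while *Nrf1* (-0.08 ± 0.16, adjusted p = 0.684) and *Yy1* (0.50 ± 0.21, adjusted p = 0.0613) did not pass.

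**Figure D5:**
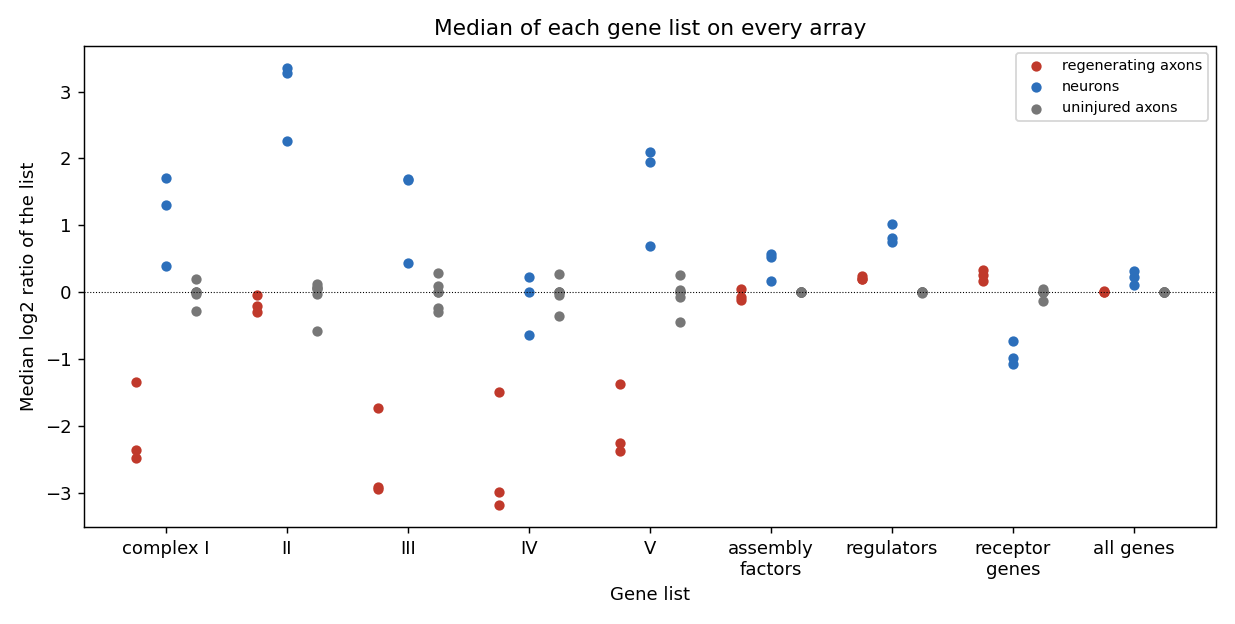
Median log2 ratio of each gene list on every array: complexes I to V, assembly factors, transcriptional regulators, the 29 smell, taste and pheromone receptor genes, and all genes (regenerating axons left, neurons in the middle, uninjured axons right). Complexes I, III, IV and V lie below 0 on all 3 regenerating arrays, while complex II, the assembly factors and all genes lie near 0 there.

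The promoters of the subunit genes were read for motifs of factors known to act on respiratory genes, from 250 bases before to 50 bases from the gene start. RefSeq promoters (GRCr8) were matched by gene for 33 of the 35 genes, all except *Ndufa8* and *Ndufb9*. The letters AAGATGGCG, of YY1, stood in 7 of the 33 (21.2%), against 1.93% of 27457 promoters. All 7 matches lay on the gene's own strand between base 5 and base 35 of the transcript (*Ndufa2*, *Ndufa6*, *Ndufa9*, *Ndufb8*, *Ndufs4*, *Ndufs6* and *Ndufs7*), where letters that include ATG can also belong to a start codon. The letters CCGGAAG, of GABPA and other ETS factors, stood in 7 of the 33 (21.2%) on either strand, against 9.22% of all promoters. The letters GCGCATGCG, of NRF1, stood in *Ndufa11* alone (1 of 33, against 1.66%), where matches on both strands overlap, and TCAAGGTCA, of the estrogen-related receptors, in 0 of 33, against 0.412%. Both strands were searched for each motif, and a match is a description of letters only.

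The promoters of 3 genes are shown because their genes differ in regenerating axons: *Ndufa6* and *Ndufs7* were lower there, and *Ndufs1*, at log2 -0.25 ± 0.49, did not pass. They lie at chr7:115750268-115750567 (*Ndufa6*), chr7:10110449-10110748 (*Ndufs7*) and chr9:72073556-72073855 (*Ndufs1*) of GRCr8, all on the minus strand, and are written from 5′ to 3′ with motif letters in capitals.
Ndufa6: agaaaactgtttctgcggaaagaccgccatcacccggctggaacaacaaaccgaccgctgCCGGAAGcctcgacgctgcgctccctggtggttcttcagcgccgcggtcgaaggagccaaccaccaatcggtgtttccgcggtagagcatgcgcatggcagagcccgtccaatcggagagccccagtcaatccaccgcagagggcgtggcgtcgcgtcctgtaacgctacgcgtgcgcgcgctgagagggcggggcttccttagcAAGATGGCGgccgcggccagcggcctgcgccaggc
Ndufs7: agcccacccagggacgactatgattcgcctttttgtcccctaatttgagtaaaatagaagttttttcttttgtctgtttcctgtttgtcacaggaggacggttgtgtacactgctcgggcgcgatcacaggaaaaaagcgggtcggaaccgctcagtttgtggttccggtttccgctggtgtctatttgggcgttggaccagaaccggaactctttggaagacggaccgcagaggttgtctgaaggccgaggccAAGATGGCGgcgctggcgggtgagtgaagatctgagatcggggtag
Ndufs1: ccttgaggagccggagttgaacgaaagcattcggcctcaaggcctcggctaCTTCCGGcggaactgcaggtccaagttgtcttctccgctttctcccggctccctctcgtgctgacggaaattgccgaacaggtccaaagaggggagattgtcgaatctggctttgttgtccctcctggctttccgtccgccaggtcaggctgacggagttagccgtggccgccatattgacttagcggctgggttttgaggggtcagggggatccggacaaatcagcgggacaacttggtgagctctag

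*Ndufa6* has a GABPA match from base -190 to base -184 and a YY1 match from base 16 to base 24, *Ndufs7* a YY1 match from base 5 to base 13, and *Ndufs1* a GABPA match on the opposite strand from base -199 to base -193, counted from the first base of the gene as base 1 with no base 0. Genes with a YY1 match ranged from log2 -4.02 to -0.24 in regenerating axons (median -1.51, 2 of 7 lower) and from -0.55 to 3.02 in neurons. Those with a GABPA match ranged from -4.02 to -0.25 (median -2.89, 3 of 7 lower) in regenerating axons and from -0.76 to 3.48 in neurons. Both sets thus span most of the range of the 35 genes. Beside these counts, 10 of all 35 subunit genes and 0.689% of all genes were lower in regenerating axons. Whether a motif goes with the difference was not tested.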

How the data were processed

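Expression was measured on 13 GeneChip arrays (3 of regenerating axons, 3 of neurons, 7 of uninjured axons). The deposited table holds linear ratios for 31099 probe sets. The submitters' processing notes name RMA, with no version, and how the ratios were formed is not given in the sources used here. In every row the median of uninjured arrays 1 to 3, and of arrays 4 to 6, is 1 within 0.0001, and array 7 is 1, so these arrays form 3 ratio sets and differences between sets are lost. Symbols came from the array's annotation, and no symbol changed when gene identifiers were matched to GRCr8.

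A gene's value is the mean log2 ratio of its single-symbol probe sets. Fits used limma 3.58.1 (lmFit, eBayes; R 4.3.3) over 14217 genes, checked on simulated data. Each group was set against array 7, which stands for a reference of 1 array, with the spread pooled from the group and from uninjured arrays within their sets. That error of the reference was assigned, not measured. Regenerating axons and neurons were compared by a 2-group fit. Adjustment was by Benjamini-Hochberg across the 14217 genes, and adjusted p below 0.05 counted as passed. The members, the lists and the tests were chosen with earlier results of these data known. Values on every array are given for core subunits, for the 5 largest rises and falls that passed in each comparison, for genes whose probe sets differ by over 1 on the log2 scale, and for *Ndufa4* and *Ndufa4l2*. Values of other genes (*Ndufa2*, *Ndufb5* and *Ndufb9*) were added after theirs were seen. A filter on low values was not possible, since ratios carry no signal level.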

Additional observations from a re-analysis of the deposited data

Results flagged for a closer look

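In the 6 measured uninjured arrays, 15 of 35 subunit genes (42.9%) had an array that stood far from the others, where 17.2% of all 14217 genes did. The rule would mark about 1 group in 20 by chance among independent values, but each set of 3 arrays was divided by its own median, which fixes one value of each probe set at 1 in each set, so that rate need not hold here. In 10 of the 15 the distant array was uninjured array 1, and it was low, as it was for 2.22% of all genes: *Ndufa8* read 0.178 there, *Ndufb5* 0.246, *Ndufv2* 0.250, *Ndufb9* 0.269, *Ndufb6* 0.371, *Ndufa12* 0.451, *Ndufa4* 0.529, *Ndufb7* 0.548, *Ndufs6* 0.606 and *Ndufb4* 0.629. *Ndufs4* was low on array 5, at 0.675. High values stood apart for *Ndufs1* on array 4 (2.62), *Ndufv1* on array 6 (2.25), *Ndufc1* on array 2 (1.66) and *Ndufa13* on array 2 (1.41). The median of 4 markers of cell-body RNA was 1.617 on uninjured array 4 and 0.9528 to 1.073 on the other measured ones. On array 4 *Ddx5* read 3.818 and *Hnrnpu* 2.496, while *Polr2a* read 1.047 and *Snrpn* 0.898. *Fabp7* read 14.66 there, against a median of 1.09 for the 8 astrocyte markers. Whether cell-body transcripts bear on the *Ndufs1* value was not tested. The GAPDH 3′ control read 0.620 on uninjured array 1 and between 0.988 and 1.41 on the others.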

How the results depend on the processing

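In all alternatives run, the 35 genes kept a negative value in regenerating against uninjured axons, and the median lay between -2.50 and -1.89 when 1 array was left out. The number called lower there, 10, became 30 without the error of the reference and 30 in the plain fit against 6 uninjured arrays, 1 in the fit of all 3 groups, and 0 to 20 when 1 array was left out (0 without regenerating array 2 or 3 or uninjured array 2 or 6, 20 without regenerating array 1). Of the 10, 8 were among the 14 called with the replicate block. Against uninjured axons, neurons had 14 genes higher (20 with the replicate block, 12 to 25 when 1 array was left out, 25 without neuron array 2) and 1 lower (3 without the error of the reference). Genes whose groups do not overlap numbered 18 to 31 (without neuron array 2) in neurons, against 42.4% to 48% of all genes, and 26 to 32 in regenerating axons, against 13.3% to 16.5% of all genes, when each array was left out in turn, alternatives added after the data were seen. Between regenerating axons and neurons 34 genes were lower with the replicate block, and 0 or 1 was higher when 1 array was left out. Values that changed sign belonged to 4 genes in neurons that had not passed: *Ndufb4* stood at 0.044 in the plain fit, 0.14 with the replicate block and -0.40 to 0.46 when 1 array was left out, as did *Ndufa2* at -0.0071 to 0.87, *Ndufa3* at -0.50 to 0.21 and *Ndufa5* at -0.24 to 0.89. The cause of these changes was not tested. Deviations from the group mean were correlated between arrays with the same number. The correlations were -0.39 to -0.12 for regenerating with uninjured axons, -0.17 to 0.19 for neurons with uninjured axons and -0.11 to 0.18 for regenerating axons with neurons. Deviations from a mean of 3 arrays are bound to each other, and uninjured arrays 1 to 3 were divided by their own median. The correlations therefore cannot decide whether the numbers pair the samples. Without a signal level per gene, what lies near background cannot be told.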
